A study of Mus musculus with 14 samples.

Results

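The enzymes described here attach glucuronate, glutathione or sulfate to small molecules. They were taken as the probe sets annotated to exactly 1 gene symbol that starts with Ugt1, Ugt2, Gst and a letter, Mgst or Sult. This gave 49 probe sets for 38 genes, of 20393 probe sets for 12394 genes in all. The UDP-glucuronosyltransferases were 6 Ugt2 genes, the soluble glutathione transferases 18 Gst genes, the membrane-bound ones 3 Mgst genes, and the sulfotransferases 11 Sult genes. The 3 Ugt1 probe sets carry several symbols each, so no Ugt1 gene is described. The rule reads symbols and no measured value, but it was chosen with earlier results of these data known.

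The series holds 14 oligonucleotide arrays of RNA from mouse small intestine. Villi and crypts were each measured in 3 samples from C57BL/6 mice aged 12 weeks, named V12, V41 and V275 for villi and K12, K21 and K41 for crypts; values are given in that order. Endoderm and mesenchyme of the intestine were separated at embryonic day 12 (E12) after collagenase digestion, with 4 arrays each. Every E12 sample was pooled, 3 per layer from 10 to 12 fetuses and 1 per layer from 35 fetuses. The labels name no mutation, transgene or drug in any group, and give no strain for the embryos.

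The values are log2 signals in 2 tables from 2 array platforms. The first holds 6 adult arrays and 2 E12 arrays, those made from 35 fetuses, and the second holds 6 E12 arrays, 3 per layer, numbered 2, 3 and 4. The 30th percentile of all signals was 5.78 in the first table and 4.74 in the second, and each comparison was made within 1 table. A group whose mean lay under that percentile is called dim below, since such signals are mostly background. A difference from a dim group is given as measured, and its fold is given only as a lower bound, the brighter group's mean against that percentile. The enterocyte, Paneth cell, endoderm and stromal markers given here followed the labels, and some other lists did not. The 4 enterocyte markers on the arrays averaged 11.23 to 12.22 in villi and 5.95 to 6.27 in crypts, and the 4 Paneth cell markers 7.98 to 9.57 in villi and 12.70 to 12.87 in crypts. T cell markers also differed, at 9.32 to 10.33 in villi and 6.71 to 6.89 in crypts. In the second table the 4 endoderm markers averaged 10.48 to 11.06 in E12 endoderm and 5.55 to 6.10 in E12 mesenchyme, and the 4 stromal markers 6.65 to 7.43 in endoderm and 11.97 to 12.14 in mesenchyme. Mesenchyme also had erythroid markers at 9.995 to 10.25, against 5.015 to 5.175 in endoderm. Its endothelial markers were at 7.60 to 7.80, against 4.29 to 4.45. Stem cell markers averaged 5.87 to 6.24 in endoderm and 6.31 to 6.42 in mesenchyme. Enteroendocrine markers averaged 4.63 to 4.97 in endoderm and 5.325 to 6.11 in mesenchyme. The share of these other cells in the differences below was not tested. In samples that mix cell types, fewer cells of a type and less RNA per cell cannot be told apart.

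Conjugation is the step of drug and toxin handling in which a polar group is added, so that the product dissolves in water and can be exported. UDP-glucuronosyltransferases sit in the membrane of the endoplasmic reticulum and take glucuronate from UDP-glucuronate. Glutathione transferases join the thiol of glutathione to reactive electrophiles, and sulfotransferases take sulfate from the donor PAPS. Intestinal epithelium meets ingested compounds first, and the same enzymes act on bile acids, steroids, bilirubin and hormones made in the body.

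Between adult villi and crypts, 10 of the 38 genes were higher in villi and 2 were lower at a limma adjusted p under 0.05 (the call used throughout). Across all genes tested, 13.6% were called higher and 12.4% lower. The higher genes were Sult1b1, Sult2b1, Sult1d1, Ugt2a3, Ugt2b34, Gstm3, Gstk1, Gsta4, Gstm6 and Mgst3, and the lower genes were Gstm5 and Gstz1. Of these, 9 were at least 2-fold higher, against 8.29% of all genes, and 1 was at least 2-fold lower, against 5.62%. The other 26 genes were not called, and 10 of the 38 were dim in both groups. The median difference of the 38 genes was 0.07 on the log2 scale, beside 0.00 for all genes. Arrays of villi and crypts were fully apart for 18 of the 38 genes, and for 43.2% of all genes.

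**Figure D1:**
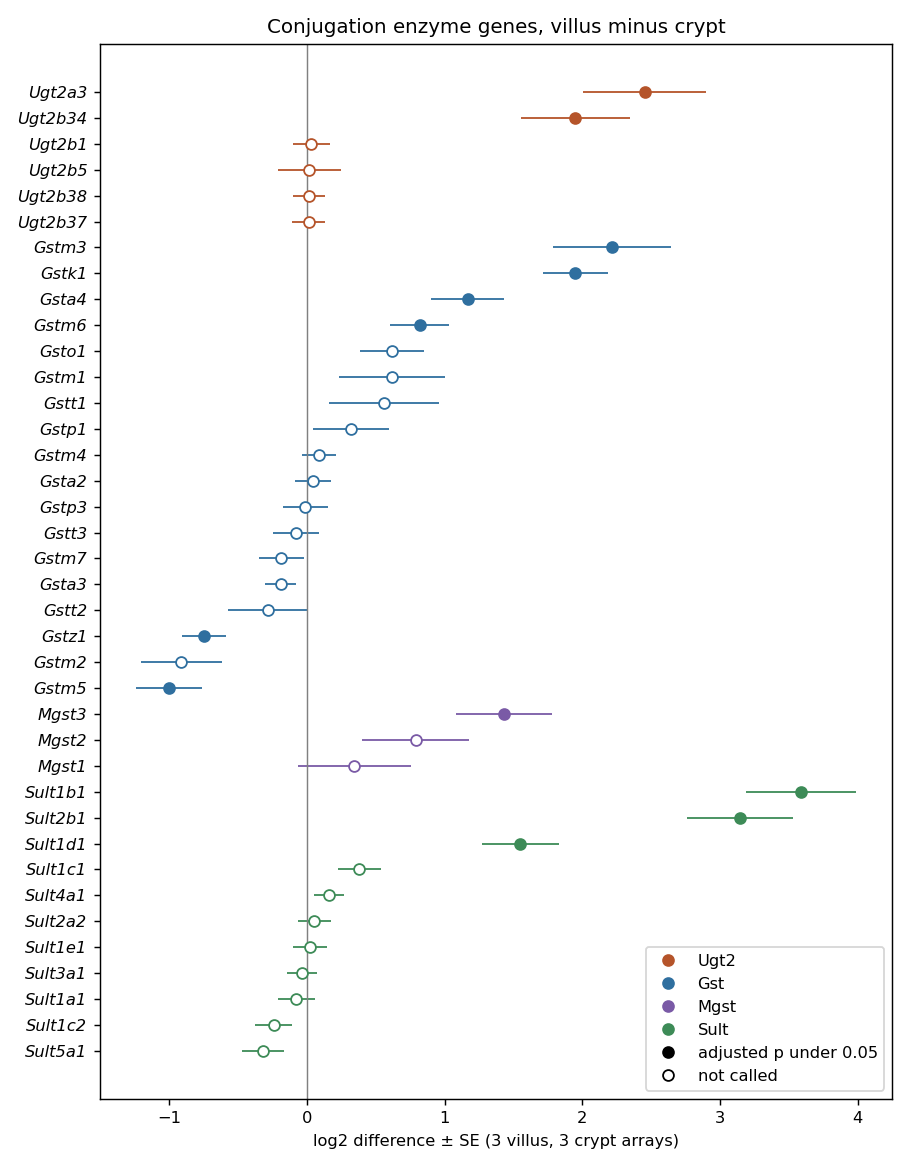
Difference between 3 villus and 3 crypt arrays for each of the 38 genes, in log2 units with the standard error (SE), grouped by enzyme class; filled points passed the adjusted p threshold of 0.05. Each class holds 1 or more genes well to the right of 0, and 4 of the 6 Ugt2 genes lie at 0.03 or less.

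Between the E12 layers of the second table, 16 of the 38 genes were higher in endoderm and 6 were lower. Across all genes 22% were called higher and 20.3% lower. The 22 genes called in either direction compare with 42.3% of all genes. At 2-fold or more, 9 genes were higher, against 6.74% of all genes, and 1 gene was lower, against 8.26%. The layers did not overlap for 25 of the 38 genes, and for 52.7% of all genes. The median difference was 0.21 for the 38 genes and 0.04 for all genes, and 15 of the 38 were dim in both layers. Ugt2b34 and Sult1d1 had the largest measured differences, of more than 4 log2 units, with Sult1d1 dim in mesenchyme. In the E12 pair of the first table, 21 of the 22 called genes differed in the same direction, the exception being Mgst3, and of the 10 called genes with at least a 2-fold difference 8 also reached 2-fold there. Agreement with the pair was not counted over all called genes, so whether it is particular to the 38 genes is not known. That pair has 1 array per layer and carries no test; 8 of the 38 genes were at least 2-fold higher in its endoderm array, against 5.85% of all genes, and 1 was at least 2-fold lower, against 5.91%.

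**Figure D2:**
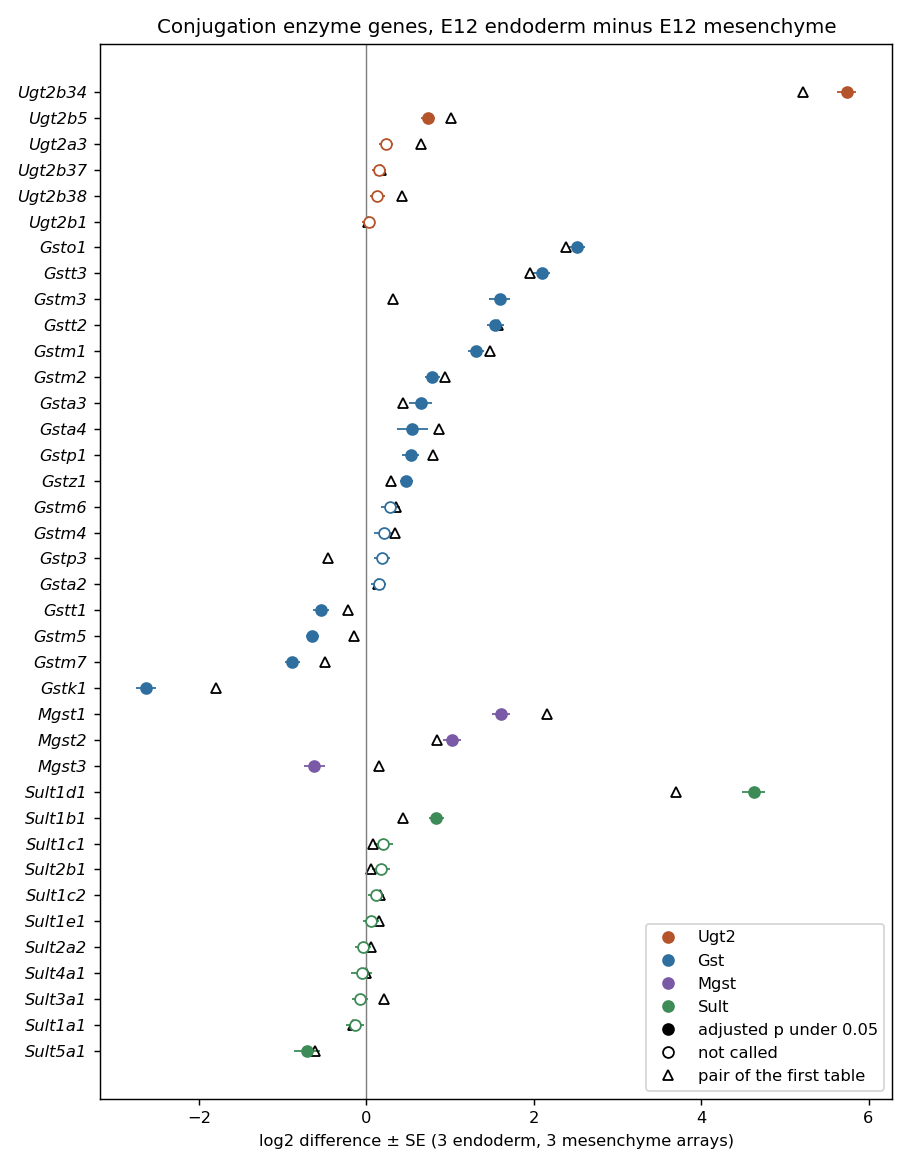
Difference between 3 E12 endoderm and 3 E12 mesenchyme arrays of the second table for each of the 38 genes, in log2 units with the SE, grouped by enzyme class; filled points passed the adjusted p threshold of 0.05, and triangles are the pair of the first table, 1 array per layer. Ugt2b34 at 5.74 and Sult1d1 at 4.63 stand farthest to the right, and Gstk1 at -2.63 farthest to the left.

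Adult crypts and villi were also each set against the single E12 endoderm array of the first table, in a fit that takes the spread from all groups and assumes that this array varies like the others. Crypts had 2 genes higher (7.23% of all genes were) and 2 lower (14.1% of all genes). Villi had 9 genes higher (14.5% of all genes) and 2 lower (19.8% of all genes). The medians of the 38 genes were 0.08 for crypts and 0.20 for villi, and those of all genes 0.08 and 0.14. Both comparisons use the same embryonic array.

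Of the UDP-glucuronosyltransferases, 2 of 6 were called between villi and crypts, both higher (13.6% of all genes were), and these 2 alone were not dim in both groups. Ugt2a3 and Ugt2b34 lie in the Ugt2 gene cluster on chromosome 5, and the sulfotransferase genes Sult1b1 and Sult1d1 follow in the same region. The windows from 250 bases before to 50 bases after the annotated start of these 4 genes are printed because the 4 were higher in villi than in crypts and lie in this region. Of the 38 genes it also holds Ugt2b1, Ugt2b5 and Ugt2b37 between Ugt2b34 and Ugt2a3, Ugt2b38 between Ugt2a3 and Sult1b1, and Sult1e1 after Sult1d1, and these 5 were dim in villi and crypts and not called. The windows are from RefSeq, assembly GRCm38.p6, at chr5:86906888-86907187 on the minus strand for Ugt2b34, chr5:87337146-87337445 on the minus strand for Ugt2a3, chr5:87538146-87538445 on the minus strand for Sult1b1 and chr5:87568957-87569256 on the minus strand for Sult1d1. Capitals mark matches on the printed or the opposite strand to GTTAAT (a half-site of the hepatocyte and intestinal factor HNF1), TTTATG (the core of Cdx sites) or TATAAA (the TATA box).
Ugt2b34: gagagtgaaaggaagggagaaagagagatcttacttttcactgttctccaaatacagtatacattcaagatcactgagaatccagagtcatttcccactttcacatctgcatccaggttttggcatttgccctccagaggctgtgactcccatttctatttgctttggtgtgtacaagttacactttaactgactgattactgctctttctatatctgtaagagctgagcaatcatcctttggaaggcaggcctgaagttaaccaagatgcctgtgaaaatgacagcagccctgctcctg
Ugt2a3: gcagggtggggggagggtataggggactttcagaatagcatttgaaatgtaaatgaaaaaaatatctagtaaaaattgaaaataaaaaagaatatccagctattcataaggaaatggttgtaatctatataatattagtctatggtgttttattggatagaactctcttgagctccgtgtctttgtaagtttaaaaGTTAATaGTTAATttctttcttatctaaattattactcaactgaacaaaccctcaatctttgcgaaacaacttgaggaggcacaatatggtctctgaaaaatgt
Sult1b1: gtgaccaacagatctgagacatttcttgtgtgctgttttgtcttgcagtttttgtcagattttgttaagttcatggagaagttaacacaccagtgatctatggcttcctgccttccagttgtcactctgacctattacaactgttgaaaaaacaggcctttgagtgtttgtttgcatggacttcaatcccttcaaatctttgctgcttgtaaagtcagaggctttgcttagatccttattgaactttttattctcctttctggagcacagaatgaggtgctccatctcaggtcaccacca
Sult1d1: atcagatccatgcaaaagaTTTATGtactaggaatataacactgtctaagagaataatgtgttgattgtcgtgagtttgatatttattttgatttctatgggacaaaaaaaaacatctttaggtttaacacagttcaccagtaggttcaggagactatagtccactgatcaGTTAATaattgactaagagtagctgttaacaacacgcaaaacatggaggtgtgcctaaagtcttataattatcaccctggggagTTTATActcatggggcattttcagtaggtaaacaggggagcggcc

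A window was found for 34 of the 38 genes. GTTAAT occurred in 4 of these 34 windows, those of Ugt2a3, Sult1d1, Sult1a1 and Gsta3, and in 7.22% of all 27018 windows. In Ugt2a3 it occurred at 2 places, beginning at -54 and -47 from the start, and in Sult1d1 once, at -79. TTTATG was present in 4 windows (Sult1d1, Gstm5, Mgst1 and Ugt2b1) and in 12.2% of all windows, and TATAAA in 6 windows and in 14.2%. CAAAGTCCA, a form of the HNF4 site, occurred in 0 of the 34 windows and in 0.474% of all windows. TGACNNNGC, the core of the antioxidant response element through which Nrf2 acts, was in the windows of Gstm5, Gsta3 and Mgst1, and in 12.4% of all windows. Both strands were searched. A match to letters is not evidence of binding. The windows of Ugt2b34 and Sult1b1 held no match to any of these letters.

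Ugt2a3, whose human counterpart glucuronidates bile acids, had log2 signals of 8.48, 7.29 and 9.24 in villi V12, V41 and V275, and 5.61, 5.96 and 6.08 in crypts K12, K21 and K41. All villi were above all crypts, V41 lay lowest among the villi, and the crypts were near the 30th percentile. The difference was 2.45 ± 0.45 (SE, n = 3 each), or 5.48-fold, with a limma adjusted p of 0.00764. With the replicate number added to the fit, Ugt2a3 differed by 2.04 and was not called (limma adjusted p = 0.069). At E12 it was dim in both layers, at 3.98, 3.87 and 3.78 in endoderm and 3.59, 3.69 and 3.64 in mesenchyme, and was not called. Against the E12 endoderm array, at 5.24 in the first table, which is dim, villi were higher by a measured 3.10 ± 0.63 (at least 5.87-fold, limma adjusted p = 0.00833), a call lost when only the arrays of these groups were fitted (adjusted p = 0.059). Crypts differed from that array by 0.64, which was not called.

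Ugt2b34, a family 2B enzyme, was bright in adult epithelium and in embryonic endoderm. Its log2 signals were 10.88, 11.36 and 11.63 in villi and 8.49, 9.45 and 10.07 in crypts, without overlap, and K12 was lowest. The difference was 1.95 ± 0.39 (3.86-fold, limma adjusted p = 0.0111). In the second table it stood at 10.51, 10.53 and 10.66 in E12 endoderm and at 4.83, 4.62 and 5.03 in E12 mesenchyme, close to the 30th percentile. That difference of 5.74 ± 0.12 is 53.4-fold (limma adjusted p = 8.1e-09) and was the largest measured for any of the 38 genes in any of the 4 comparisons. The pair of the first table gave 10.59 in endoderm and 5.38 in mesenchyme. The crypts lay below that endoderm array by 1.25 and the villi above it by 0.70, neither of which was called. A second probe set of Ugt2b34 gave -2.06 for crypts, which was called (adjusted p = 0.024 when that probe set stood for the gene), and -0.09 for villi, so the direction against embryonic endoderm depends on the probe set for villi.

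Ugt2b1, Ugt2b5, Ugt2b37 and Ugt2b38 were dim in villi, crypts and both E12 layers. Their villus and crypt means differed by at most 0.03. Ugt2b5 was called higher in E12 endoderm, at 4.17, 4.13 and 4.09, against 3.51, 3.32 and 3.36 in mesenchyme (0.73 ± 0.09, limma adjusted p = 0.000163), but all 6 values lie under the 30th percentile of their table. Hepatic plasma protein genes moved with the layers too. Afp averaged 9.86 in E12 endoderm and 4.02 in mesenchyme, and Ttr 11.40 and 7.19 in the same order, while Alb was dim in both layers at 4.30 and 4.31. The part of liver cells in the endoderm values was not tested.

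**Figure D3:**
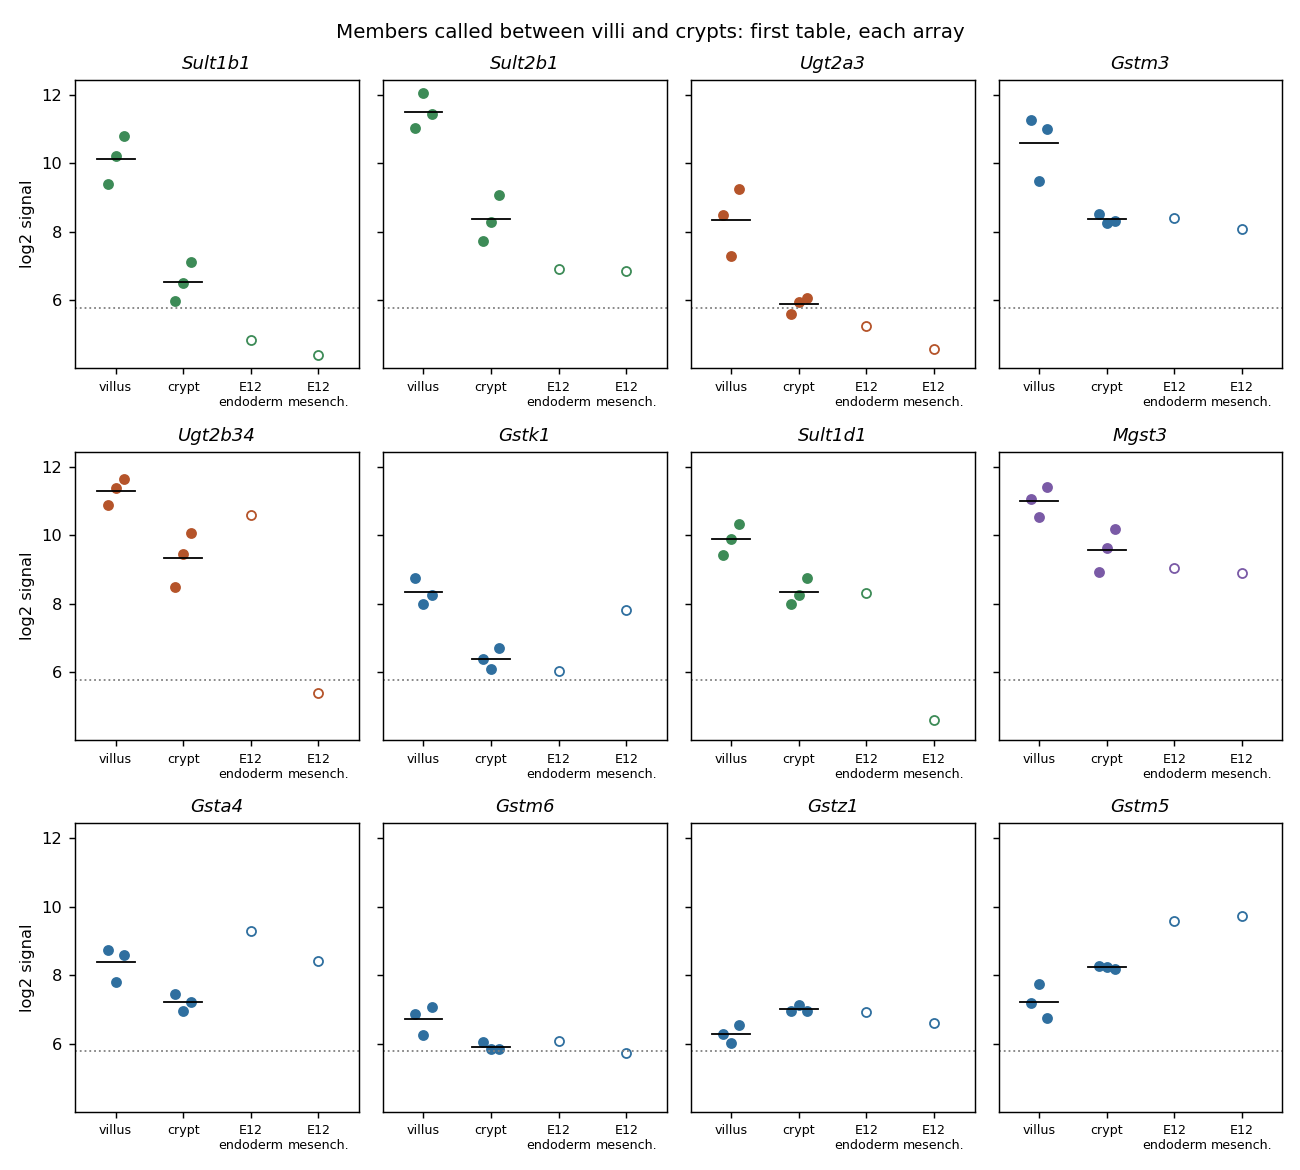
Log2 signal in every array of the first table for the 12 genes called between villi and crypts; filled points are adult arrays with the group mean as a line, open points are the single E12 arrays, and the dotted line is the 30th percentile of the table at 5.78. Ugt2b34 and Sult1d1 are near 10.59 and 8.32 in E12 endoderm and lie under the dotted line in E12 mesenchyme, while Sult1b1 lies under it in both E12 layers.

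Of the 11 sulfotransferases, 3 were higher in villi and 0 were lower by limma (4 higher and 0 lower at an unadjusted p under 0.05), against 13.6% and 12.4% of all genes, and 4 were dim in both groups. Sult1b1, which sulfates thyroid hormones and small phenols, gave the largest villus difference of the 38 genes. Its log2 signals were 9.39, 10.20 and 10.79 in villi and 5.99, 6.51 and 7.11 in crypts. The groups did not overlap, and the lowest villus was more than 2 log2 units above the highest crypt. The difference was 3.59 ± 0.40 (12.1-fold, limma adjusted p = 0.00123). In the second table it was near background, at 4.92, 4.70 and 4.76 in E12 endoderm and 3.94, 3.92 and 4.01 in E12 mesenchyme, and endoderm was higher by a measured 0.84 ± 0.09 (limma adjusted p = 9.02e-05), with mesenchyme dim and endoderm at the 30th percentile. Against the embryonic endoderm array at 4.84, which is dim, villi were higher by a measured 5.29 ± 0.57 (at least 20.4-fold, limma adjusted p = 0.000491). Crypts were higher by 1.70, with an adjusted p of 0.0735, and were not called.

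Sult2b1, which sulfates cholesterol and pregnenolone, had signals of 11.03, 12.06 and 11.45 in villi and 7.72, 8.28 and 9.09 in crypts. Every villus lay above every crypt, by 3.15 ± 0.38 on average (8.86-fold, limma adjusted p = 0.00161). Against E12 endoderm at 6.91 the villi were higher by 4.60 ± 0.54 (limma adjusted p = 0.000732), and the crypts by 1.46 (adjusted p = 0.0998, not called). Within the second table it was dim in both layers and was not called, with a difference of 0.18. In the E12 pair of the first table the mesenchyme array, at 6.85, was close to the endoderm array. Whether these 2 signals exceed the background of this probe set was not tested.

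Sult1d1, which acts on catecholamines and other amines, differed along both axes. It reached 9.42, 9.90 and 10.33 in villi and 7.99, 8.26 and 8.75 in crypts, without overlap, a difference of 1.55 ± 0.28 (2.93-fold, limma adjusted p = 0.00712). At E12 it stood at 8.10, 8.66 and 8.47 in endoderm and 3.74, 3.72 and 3.89 in mesenchyme, where it was dim. The measured difference was 4.63 ± 0.14 (at least 12.7-fold, limma adjusted p = 4.3e-08). The first table's pair gave 8.32 in endoderm and 4.62 in mesenchyme. Crypts differed from that endoderm array by 0.01, while villi were higher by 1.57 ± 0.39 (limma adjusted p = 0.0196; 0.056, not called, when only the arrays of these groups were fitted), or 2.18 by the probe set median. A second probe set of Sult1d1 gave villus and layer differences of the same direction, 2.31 and 3.55.

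The other 8 sulfotransferases differed between villi and crypts by -0.32 to 0.38, none of them called. These include Sult1a1, the phenol enzyme, and Sult1e1, the estrogen enzyme, of which Sult1e1 was dim in all groups. Sult5a1, for which no substrate is given here, was lower in E12 endoderm, at 5.86, 5.46 and 5.30, against 6.15, 6.17 and 6.43 in mesenchyme. The layers did not overlap (-0.71 ± 0.15, limma adjusted p = 0.00532). Crypts exceeded E12 endoderm for Sult5a1 by 0.66 and for Sult1a1 by 0.63, with adjusted p of 0.07 and 0.054, and neither was called.

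The soluble glutathione transferases had genes called in both directions in both comparisons. Of 18 genes, 4 were higher and 2 lower in villi than in crypts, against 13.6% and 12.4% of all genes, and the 2 lower are near that share. In E12 endoderm 10 were higher and 4 lower than in E12 mesenchyme, against 22% and 20.3% of all genes, and the 4 lower are near that share. The mu class genes form a cluster on chromosome 3 in the order Gstm5, Gstm7, Gstm6, Gstm3, Gstm2, Gstm1 and Gstm4. They are close in sequence, and probe sets whose names end in _s_at or _x_at, such as those used for Gstm3 and Gstm1, can bind several of them. The start windows of Gstm3 and Gstm5 are printed because these genes of a single cluster differed in opposite directions in both adult and embryonic comparisons. They lie in GRCm38.p6 at chr3:107969125-107969424 on the minus strand for Gstm3 and chr3:107895604-107895903 on the plus strand for Gstm5, and are from RefSeq. Capitals mark TTTATG, TGACNNNGC or TATAAA, as above.
Gstm3: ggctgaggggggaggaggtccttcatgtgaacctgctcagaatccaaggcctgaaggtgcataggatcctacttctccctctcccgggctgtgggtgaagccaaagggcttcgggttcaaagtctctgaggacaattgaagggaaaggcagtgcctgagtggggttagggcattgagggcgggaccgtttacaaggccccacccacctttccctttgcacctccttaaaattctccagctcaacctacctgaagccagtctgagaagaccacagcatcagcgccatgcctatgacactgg
Gstm5: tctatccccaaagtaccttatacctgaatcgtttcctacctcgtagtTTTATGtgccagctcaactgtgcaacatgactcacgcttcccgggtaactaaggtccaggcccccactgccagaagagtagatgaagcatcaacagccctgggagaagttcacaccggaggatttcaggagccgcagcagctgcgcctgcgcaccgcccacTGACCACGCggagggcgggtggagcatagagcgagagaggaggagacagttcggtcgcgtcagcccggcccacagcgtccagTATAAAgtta

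The window of Gstm3 held no match to the searched letters. In Gstm5, TGACNNNGC began at -42 from the start and TTTATG at -203, and TATAAA lay within the transcribed part of the window.

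Gstm3 had log2 signals of 11.26, 9.48 and 11.01 in villi and 8.53, 8.26 and 8.32 in crypts. V41 was the lowest villus but remained above every crypt. The difference was 2.22 ± 0.43 (4.64-fold, limma adjusted p = 0.00974). With the replicate number added to the fit, Gstm3 differed by 1.946 and was not called (limma adjusted p = 0.069). In E12 endoderm it stood at 7.13, 6.95 and 6.79, against 5.36, 5.18 and 5.55 in mesenchyme, a difference of 1.59 ± 0.13 (limma adjusted p = 1.34e-05), or 0.96 with its other probe set. The E12 pair of the first table showed only 0.32. Villi exceeded the E12 endoderm array by 2.20 ± 0.61 (limma adjusted p = 0.0289), a call that was lost without V275, at an adjusted p of 0.062, with only the arrays of these groups, at 0.11, and with the other Gstm3 probe set, at 0.07.

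Gstm5 ran the other way. It had 7.19, 7.76 and 6.76 in villi and 8.28, 8.24 and 8.20 in crypts. Crypt values lay within 0.1 of each other and above every villus, and the difference was -1.001 ± 0.24 (limma adjusted p = 0.0214). This call was lost when any of the 3 crypts was left out, at adjusted p of 0.056 to 0.079. In E12 endoderm it was 9.77, 9.81 and 9.77, against 10.34, 10.45 and 10.49 in mesenchyme (-0.64 ± 0.08, limma adjusted p = 0.000254). Against the E12 endoderm array at 9.59, villi differed by -2.35 ± 0.34 (5.11-fold, limma adjusted p = 0.00177) and crypts by -1.35 ± 0.34 (limma adjusted p = 0.0304). The crypt call was lost without any 1 of the crypts.

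Gstm2 had 6.85, 5.80 and 6.43 in villi and 7.46, 7.50 and 6.85 in crypts, and narrowly missed the call at -0.91 (adjusted p = 0.0601). It was called in 4 alternatives, such as the one without V12 (adjusted p = 0.025). Against E12 endoderm at 8.33, villi were lower (-1.97 ± 0.42, limma adjusted p = 0.00959). Gstm2 and Gstm1 were both higher in E12 endoderm than in mesenchyme, by 0.79 and 1.31. Gstm1, a main mu class enzyme, had 9.39, 7.84 and 9.11 in villi and 8.28, 8.33 and 7.88 in crypts. V41 lay below all 3 crypts, so the groups overlapped, and Gstm1 was not called (0.62, adjusted p = 0.295). Without V41 the difference was 1.09 with an adjusted p of 0.0062.

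Gstm6 was higher in villi by 0.82 ± 0.21 (1.76-fold, limma adjusted p = 0.0291), a call lost in 5 of the 6 fits that leave out an array. Its values were 6.88, 6.27 and 7.08 in villi and 6.07, 5.85 and 5.86 in crypts. Gstm4 was not called in any comparison. Gstm7 was lower in E12 endoderm, at 4.62, 4.80 and 4.66, against 5.51, 5.70 and 5.52 in mesenchyme (a measured -0.88 ± 0.09, limma adjusted p = 8.82e-05), and its endoderm mean was dim. Its other probe set gave 0.09 between the layers (limma adjusted p = 0.668 with each probe set tested) and lay under the 30th percentile in all arrays of the second table. The Gstm7 probe sets also disagreed between villi and crypts, at -0.19 and 0.30, and neither was called.

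**Figure D4:**
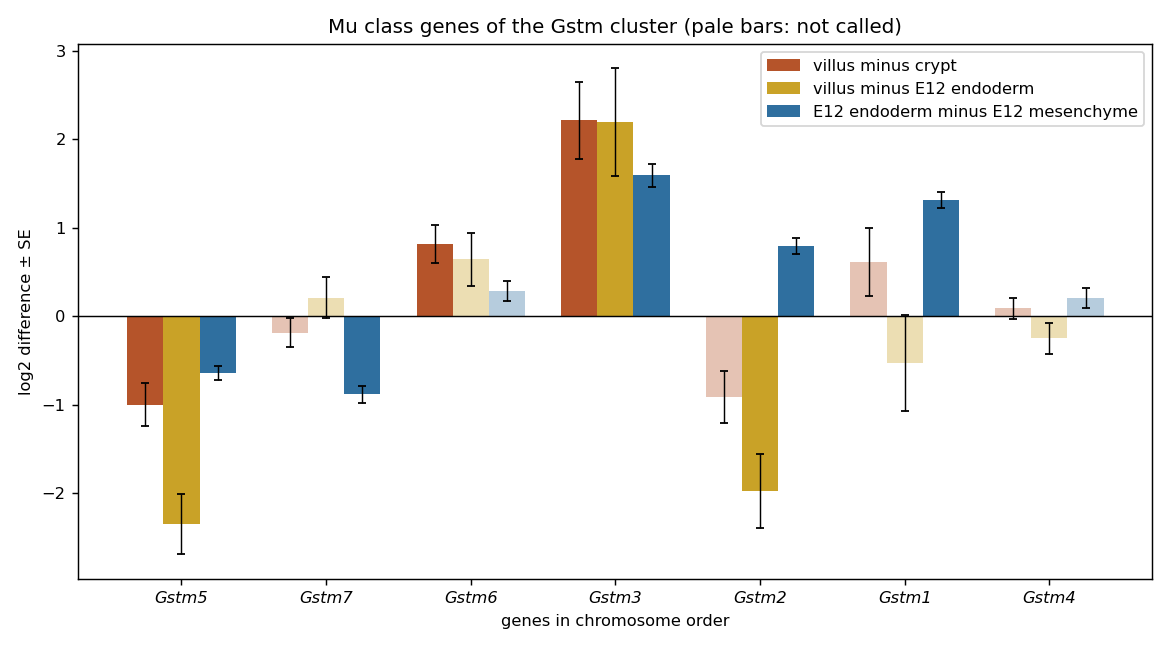
Log2 difference with SE for the 7 Gstm genes in their chromosome order in 3 comparisons; pale bars were not called. Gstm3 is above 0 and Gstm5 below 0 in all 3, while Gstm2 is at -1.97 for villi against E12 endoderm and at 0.79 for E12 endoderm against mesenchyme.

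Gstk1, the kappa class enzyme of mitochondria and peroxisomes, reversed between the embryonic layers and the adult axis. It had 8.76, 8.003 and 8.26 in villi and 6.37, 6.09 and 6.70 in crypts, without overlap, a difference of 1.95 ± 0.23 (3.86-fold, limma adjusted p = 0.00152). In E12 endoderm it had 5.46, 5.38 and 5.13, against 7.78, 8.10 and 7.98 in mesenchyme. That difference of -2.63 ± 0.12 (6.19-fold lower, limma adjusted p = 4.19e-07) was the largest in favour of mesenchyme among the 38 genes. The first table's pair gave 6.03 in endoderm and 7.82 in mesenchyme. Villi exceeded that endoderm array by 2.31 ± 0.33 (limma adjusted p = 0.00172), and crypts by 0.36, which was not called.

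Gsta4, which conjugates the lipid peroxidation product 4-hydroxynonenal, had 8.74, 7.79 and 8.60 in villi and 7.46, 6.96 and 7.22 in crypts. The difference was 1.17 ± 0.27 (2.25-fold, limma adjusted p = 0.0174). Its call was lost without V275, K21 or K41, at adjusted p of 0.051 to 0.078. Crypts were lower than the E12 endoderm array at 9.29, with a difference of -2.08 ± 0.38 (4.23-fold lower, limma adjusted p = 0.00898). The villus difference from it was -0.91, which was not called. Between the E12 layers Gsta4 was higher in endoderm by 0.55 with an adjusted p of 0.0418, a call lost in 5 of the 6 fits without an array. Gsta3, another alpha class enzyme, was higher in E12 endoderm by 0.65 ± 0.14 (limma adjusted p = 0.00529), and was dim in the adult groups. Its mesenchyme values of 5.06, 4.85 and 4.54 lay near the 30th percentile. The other Gsta3 probe set, under that percentile in all 6 arrays, gave 0.32 and was not called (limma adjusted p = 0.169 with each probe set tested). Gsta2 was dim in all groups.

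Gstz1, the maleylacetoacetate isomerase of tyrosine breakdown, had 6.28, 6.01 and 6.54 in villi and 6.97, 7.13 and 6.98 in crypts. It was lower in villi (-0.75 ± 0.16, limma adjusted p = 0.0135), and the call was lost without K21, at an adjusted p of 0.063. Between the E12 layers it was higher in endoderm by 0.48 ± 0.08 (limma adjusted p = 0.00124).

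Gsto1, an omega class enzyme with thioltransferase and dehydroascorbate reductase activity, had the largest difference in favour of endoderm among the soluble glutathione transferases. It stood at 11.23, 11.44 and 11.47 in E12 endoderm and 8.77, 8.84 and 8.98 in mesenchyme, 2.52 ± 0.10 higher in endoderm (5.72-fold, limma adjusted p = 1.93e-07). Villi exceeded crypts by 0.62 with overlapping arrays, and this was not called (adjusted p = 0.0943). The theta class genes split. Gstt3 had 6.42, 6.30 and 6.54 in E12 endoderm and was dim in mesenchyme at 4.37, 4.21 and 4.40 (a measured 2.09 ± 0.10, at least 3.20-fold, limma adjusted p = 4.6e-07), and Gstt2 was also higher in endoderm, by 1.54. Gstt1 was lower in endoderm (-0.54 ± 0.09, limma adjusted p = 0.00172). No theta class gene was called between villi and crypts, though Gstt1 was without V41, at 1.04 with an adjusted p of 0.0086.

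Gstp1, the pi class enzyme, was bright in all groups, with 12.39, 11.46 and 12.35 in villi and 11.57, 11.62 and 12.06 in crypts, and was not called between them. E12 endoderm was above mesenchyme by 0.53 ± 0.10 (limma adjusted p = 0.00253). Gstp3 instead separated adult from embryonic arrays. It had 7.50, 6.98 and 7.02 in villi and 7.16, 7.25 and 7.13 in crypts, and 5.79 in the E12 endoderm array, where the pair's mesenchyme array had 6.25. The endoderm value lay at the 30th percentile of the first table, 5.78. Villi were higher than that endoderm array by 1.37 ± 0.23 (limma adjusted p = 0.00357) and crypts by 1.38 ± 0.23 (limma adjusted p = 0.00654). In the second table Gstp3 was dim in both layers.

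The membrane-bound transferases gave 3 different patterns. Mgst1, a detoxifying enzyme of the endoplasmic reticulum and outer mitochondrial membrane, had 9.46, 9.71 and 9.75 in E12 endoderm and 7.91, 8.13 and 8.04 in mesenchyme (1.61 ± 0.11, limma adjusted p = 4.52e-06), or 0.85 when its probe sets were summarised by their median. It was not called in any comparison with adult tissue. Mgst2, which can make leukotriene C4, was also higher in E12 endoderm, with 6.03, 5.99 and 5.70, against 4.92, 4.88 and 4.85 in mesenchyme (1.02 ± 0.10, limma adjusted p = 7.01e-05). Mgst2 had 10.89, 9.80 and 10.39 in villi and 9.03, 9.36 and 10.33 in crypts, and 6.47 in the E12 endoderm array. Both adult groups were above that array, villi by 3.89 ± 0.55 (14.8-fold, limma adjusted p = 0.00158) and crypts by 3.10 ± 0.55 (8.57-fold, limma adjusted p = 0.00827). Villi and crypts overlapped for Mgst2 and were not called (0.79, adjusted p = 0.187).

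Mgst3, which has glutathione peroxidase activity, had 11.07, 10.53 and 11.41 in villi and 8.92, 9.62 and 10.17 in crypts. Villi were higher by 1.43 ± 0.35 (2.70-fold, limma adjusted p = 0.0219), a call lost without V275, K12 or K21, at adjusted p of 0.06 to 0.078. Against E12 endoderm at 9.05 they were higher by 1.96 ± 0.49 (limma adjusted p = 0.0195), or 1.28 by the probe set median. Between the E12 layers of the second table Mgst3 was lower in endoderm, at 8.13, 8.54 and 8.61, against 9.07, 9.05 and 9.02 in mesenchyme (-0.62 ± 0.13, limma adjusted p = 0.00453). The first table's pair differed by 0.15 in the other direction.

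Single arrays weighed on some of these values. V41 held the lowest of the 3 villus values for 14 of the 18 soluble glutathione transferases and all 3 Mgst genes. It also did for 4 of the 6 Ugt2 genes and 2 of the 11 sulfotransferases, and for 41.1% of all genes. Of these Ugt2 genes, Ugt2b5, Ugt2b37 and Ugt2b38 were dim in villi. Among the 28 genes not dim in villi, V41 was lowest for 17. Its enterocyte markers, at 11.23, were also the lowest of the 3 villi. So were its Paneth cell markers at 7.98 and its proliferation markers at 6.09, while its endoderm markers were the highest at 10.78. Without V41, 13 genes were called higher in villi in place of 10. K12 held the lowest crypt value for all 3 Mgst genes and for 5 of the 11 sulfotransferases, and for 28.1% of all genes. K41 held it for another 5 of the 11 sulfotransferases, and for 42.5% of all genes. Among the 28 genes not dim in crypts, K12 was lowest for 12 and K41 for 11.

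The comparison of villi with crypts and that of the E12 layers share no array. Of the 38 genes, 5 were higher in both villi and E12 endoderm, namely Ugt2b34, Sult1d1, Sult1b1, Gstm3 and Gsta4. Gstk1 and Mgst3 were higher in villi and lower in E12 endoderm, Gstz1 was lower in villi and higher in E12 endoderm, and Gstm5 was lower in both. Ugt2a3, Sult2b1 and Gstm6 were called higher in villi and not called between the layers. A further 10 genes were called higher in E12 endoderm and 3 lower without a call between villi and crypts, and 13 were called in neither. Joint calls over all genes were not counted, so whether these counts are particular to the 38 genes is not known.

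**Figure D5:**
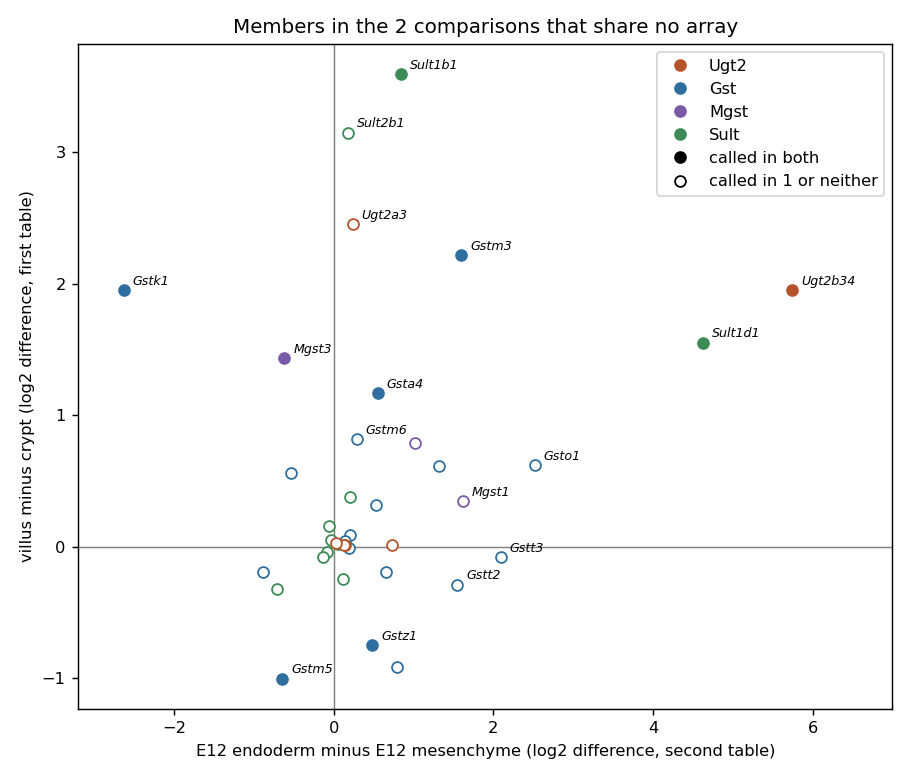
Villus minus crypt difference (first table) against E12 endoderm minus mesenchyme difference (second table) for each of the 38 genes, in log2 units; filled points were called in both. Ugt2b34 and Sult1d1 lie far right and above 0, Gstk1 lies upper left, and Sult2b1 and Ugt2a3 lie high on the vertical axis near a layer difference of 0.

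Genes that supply the donors and export the products were followed from fixed lists. Their counts between villi and crypts stand beside 13.6% of all genes called higher and 12.4% lower. In villi, 3 of 6 genes of UDP-glucuronate supply were higher than in crypts and 0 were lower (median 0.97). The named ones are the phosphoglucomutase gene Pgm2 at 2.24 and Ugdh, which makes UDP-glucuronate, at 1.97. For the sulfate donor PAPS, 3 of 7 were higher and 0 lower (median 0.73), led by the PAPS synthase Papss2 at 3.47 (1.62 when its probe sets were summarised by their median) and Bpnt1, which clears the product of PAPS use, at 1.86. The Bpnt1 call was lost without K12 or K21, at adjusted p of 0.06 and 0.069. For glutathione supply, 2 of 9 were higher and 0 lower (median 0.21), namely Gclm, a subunit of the enzyme that starts glutathione synthesis, at 1.97, and Oplah, which recycles glutamate from 5-oxoproline, at a measured 1.89 with crypts dim. The glutathione supply count is close to the share of all genes.

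Conjugate exporters went both ways between villi and crypts, with 4 of 6 higher and 2 lower. Abcg2 and Abcc2, pumps of the apical membrane, were higher by 3.27 and 2.81, while Abcc1 and Abcc5 were lower, at -1.23 and -1.16. Abcc2 was dim in crypts and Abcc1 in villi. Of the list of xenobiotic sensors, their partners and intestinal regulators, 4 of 8 were higher and 0 lower. The higher ones include Nr1i2 (the receptor PXR) at 1.15 and Nr1i3 (CAR) at 1.08. The Nr1i2 call was lost without V275, K21 or K41, at adjusted p of 0.065 to 0.087. Nrf2, its inhibitor Keap1 and Nrf2 target genes had 1 of 12 higher, near the share of all genes, namely Srxn1 at 2.78 (2.02 by the probe set median), and 1 lower, likewise near that share, Ephx1 at -0.74, a call lost without K21 at an adjusted p of 0.062. Of genes that split conjugates and esters 3 of 5 were higher, with the carboxylesterases Ces2a at 3.88 (4.52 without V275) and Ces2e at 3.04, and 1 lower, the glucuronidase Gusb at -1.29. In these lists, wherever 0 genes were lower in villi by limma, 0 also were at an unadjusted p under 0.05. Other conjugation enzymes had 0 of 10 called by limma and 1 at an unadjusted p under 0.05, the largest difference being that of the acetyltransferase Nat2 at 0.95 (adjusted p = 0.087).

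The same lists were counted between the E12 layers, where 22% of all genes were called higher and 20.3% lower. For glutathione supply 5 of 9 genes were higher in endoderm and 0 lower (median 0.43), led by Cth, which makes cysteine, at 2.72, and the glutathione reductase Gsr at 2.07. PAPS supply had 5 of 7 higher and 0 lower (median 0.59), with Bpnt1 at 1.64 and the sulfate carrier Slc26a2 at 1.17. UDP-glucuronate supply was split, with 2 of 6 higher and 3 lower, including Pgm1 at 1.44 and Pgm2 at -0.79. The list of xenobiotic sensors, their partners and intestinal regulators had 5 of 8 higher and 0 lower. It was led by the regulators Cdx2 at 5.04 and Hnf4a at 4.73. By the probe set median these were 3.82 and 2.82, and Hnf4a was 0.98 without probe sets ending in _s_at or _x_at. Nr1i2, also called higher, was dim in both layers, at 4.62 in endoderm and 4.14 in mesenchyme. Nrf2, Keap1 and Nrf2 targets had 4 of 12 higher, Keap1 among them at 0.39, and 1 lower, with the glutathione peroxidase Gpx2 at 2.9 and Nfe2l2, which encodes Nrf2, at 1.43. Exporters had 1 of 6 higher, Abcb1a at a measured 1.93 with mesenchyme dim, and 1 lower, Abcg2 at -0.46. Hydrolysis genes had 1 of 5 higher, Gusb at 1.01, and 1 lower, the sulfatase Arsa at -0.94, and other conjugation enzymes 3 of 10 higher, including As3mt at 1.08 and Nat2 at 0.77, and 2 lower. At an unadjusted p under 0.05, 0 glutathione supply genes, 0 PAPS supply genes and 1 gene of the sensor list were lower. The counts higher for exporters, hydrolysis genes and other conjugation enzymes are near the share of all genes.

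Against the E12 endoderm array, villi had 4 of 7 PAPS supply genes, 2 of 6 UDP-glucuronate supply genes and 3 of 9 glutathione supply genes higher, and 0 of each lower by limma, also at an unadjusted p under 0.05, against 14.5% and 19.8% of all genes. The largest were Papss2 at 3.06 and Gclm at 2.66. Crypts had 1 of 7, 1 of 6 and 2 of 9 of the same lists higher, and 1, 1 and 0 lower, against 7.23% and 14.1% of all genes.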

How the data were processed

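Column-purified, DNase-treated total RNA was labelled with phycoerythrin, per the labels' protocols. The deposited values are log2 signals that the authors made with RMA, per the submitters' processing notes. RMA corrects background, normalizes across arrays and summarises each probe set, and it compresses differences between dim signals. Its version and the build behind the arrays were not given in the sources used here. Arrays have no read depth; their number limits the precision.

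Of 22690 probe sets, 20393 had 1 symbol in the platforms' gene table, and 20364 of these had an Entrez identifier in RefSeq's GRCm38.p6 table, by which 0 symbols changed. Where a gene had several probe sets, the one with the highest mean in that fit stood for it. No gene was left out for low signal. Tests used limma 3.58.1 in R 4.3.3 (lmFit, eBayes, two-sided) with Benjamini-Hochberg adjustment over all 12394 genes, called at an adjusted p under 0.05. Fold values are 2 to the power of the log2 difference. All arrays of a group enter a fit, except that the E12 groups have 1 array in the first table. Whether same-numbered villus and crypt samples came from 1 animal is not stated, so p-values reflect the spread between samples and nothing wider. No duplicated array was found.

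The genes and lists were chosen with earlier results of these data known. Array values were printed for the 3 largest called differences per class, direction and comparison and for a few further genes chosen after their values were seen, and, per list, the 2 largest called differences were named (with no call, the largest difference), apart from a few named for comparison. Alternatives were a filter on dim genes, other ways of choosing probe sets, quantile normalization, another variance prior, each array left out, a replicate block and other sets of arrays. The test was checked on simulated data with known changes.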

Additional observations from a re-analysis of the deposited data

How the results depend on the processing

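Between villi and crypts, leaving out 1 array gave 7 to 13 genes higher and 0 to 3 lower, with 1 lower without K12 and 0 lower without K21. The replicate block gave 5 higher and 0 lower in villi, with 1 residual degree of freedom left, and 15 higher and 6 lower in E12 endoderm. The villus calls lost with it were those of Ugt2a3, Gstm3, Gsta4, Gstm6 and Mgst3, and of the lower genes Gstm5 and Gstz1. The numbers in the titles were not taken as pairing, since no label states it. Deviations of same-numbered samples correlated at 0.142 and 0.062 for the adult groups and at 0.193, 0.208 and 0.089 for the E12 layers. Differently numbered samples gave -0.085 to 0.067 and -0.267 to 0.109 in the same order. The values 0.142, 0.193 and 0.208 lay above these ranges, so pairing remains possible and the replicate block counts stand beside the main ones. Between the E12 layers, leaving out 1 array gave 15 to 16 higher and 6 lower. For crypts against E12 endoderm, leaving out 1 crypt gave 2 to 5 higher (5 without K41) and 1 lower, quantile normalization 1 lower, the trended and robust prior 4 higher, and only the arrays of the 2 groups 4 higher and 4 lower. For villi against E12 endoderm, leaving out 1 villus gave 8 to 11 higher and 2 to 3 lower. Ugt2b34 reversed in villi against E12 endoderm, at -0.093 without probe sets ending in _s_at or _x_at, which is the value of its other probe set. With all E12 arrays and the table as a block, Mgst3 was not called (-0.43, adjusted p = 0.053). Of 877 alternative values for single genes, 812 kept their direction and side of the threshold. Another 40 lost a call, 24 gained one and 1 reversed. Of 49 called results, 36 were called in every alternative that tested the gene. The filter on dim genes left Ugt2b5 and Sult1b1 untested between the E12 layers. Apart from the constructions named, the cause of these changes was not tested. Dim signals limit what 10 to 15 of the 38 genes can show.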
